A study of Bos taurus with 94 samples.

Results

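The abomasum is the glandular stomach of cattle, and the 60 genes described here are those whose level was most restricted to it in a survey of bovine tissues. They were chosen from 24616 Ensembl gene identifiers by the values themselves. On the log2(FPKM + 1) scale, where FPKM is the fragment count scaled to transcript length and to sequencing yield, the 98th percentile of the other 93 libraries was subtracted from the level in the Abomasum library, and the 60 largest gaps were kept. Up to 2 other libraries can lie above that percentile, so a member may still be high in 1 or 2 tissues outside the abomasum. Because the gap chose the genes, the level in Abomasum over the other tissues is given as a description, with no test.

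RNA sequencing was done on 94 libraries of snap-frozen Hereford cattle tissue, all labelled adult although 1 is named fetal_testis, in a project on reading genetic association signals through cattle transcriptomes. The libraries used most here are Abomasum, bladder and Duodenum, with 1 library each, Ureter and Urethra beside the bladder, Jejunum and Ileum beside the Duodenum, the large intestine (Ascending_colon, Descending_Colon and Caecum) and the forestomach (Rumen, RumenPapillae, Reticulum and Omasum). No treatment or genotype is labelled and no animal is named, so the libraries of a group are different tissues and p-values measure the spread between them. With 1 Abomasum library there is no replicate check of its levels, which rest on 1 piece of tissue from an unstated region of the organ. An FPKM of 1 or more was reached by 12791 genes in Abomasum, 12933 in bladder and 12815 in Duodenum, within the range of 7353 to 14198 over all libraries. The library labelled bladder stands apart from Ureter and Urethra in the genes described here, and its label could not be checked. Whole-library FPKM sums ran from 585122 to 1062591, and read depth is unknown.

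The ruminant stomach has a forestomach lined by stratified squamous epithelium, where microbes ferment the feed, and behind it the abomasum, whose glands work like the stomach of other mammals. In such glands chief cells secrete pepsinogens and other digestive enzymes, parietal cells secrete acid, surface and neck cells secrete mucus and small protective peptides, and scattered endocrine cells release hormones. Cattle also secrete lysozymes into the abomasum, where they break up bacteria arriving from the forestomach. The Duodenum receives the outflow of the abomasum, and the bladder is lined by urothelium and belongs to the urinary tract. The files do not pair the identifiers with names, and 0 of 24616 matched the RefSeq gene table for ARS-UCD2.0. It is therefore not stated which member encodes which protein, the label of a library could not be checked against named markers, and members are called by their place in the list, with 1 the largest gap.

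The members reached very high levels in Abomasum. They ran from 3.23 to 24328 FPKM there with a median of 88.7, and together they held 18.0% of all FPKM of the library. The count was 5 members at 10000 FPKM or more, 13 at 1000 or more, 27 at 100 or more, and 6 under 10. Gaps ran from 10.96 for the leading gene to 1.59 for the last member, and the first gene outside the list had 1.56, so the list ends on a slope and not at a step. A gap of 1 or more was found for 148 genes, or 0.601% of the table. The first 20 members all had a gap of at least 4.50 and at least 27.7 FPKM in Abomasum.

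ENSBTAG00000017199, the leading gene, had 22340.4 FPKM in Abomasum, against 66.4 in bladder, 64.8 in Esophagus and at most 7.02 in any of the remaining libraries, and it was listed at 0 in 76 of the 93. The second gene, ENSBTAG00000012949, had 24328 FPKM in Abomasum, 355 in bladder and 64.3 in Esophagus, and was listed at 0 in 75 of the 93. Both were listed at 0 in Duodenum, in all 4 forestomach libraries, in Ureter and in Urethra. Jejunum was the only small intestinal library with a value above 0 for these genes, at 4.81 and 7.83 FPKM. Reads of near-identical gene copies can be split by counting, and without names it could not be checked whether these similar profiles belong to such copies.

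The next members of the list were lower but still steeply graded. Those ranked 3 and 6 had 20825 and 2075 FPKM in Abomasum, against 1699 and 91.0 in bladder. The member ranked 6 had a second high library, Nasal_mucosa at 54.0 FPKM, and reached an FPKM of 1 in 4 of the 93 in all. The member ranked 9 had 508 FPKM in Abomasum and 218 in bladder, and its next library was uterine_endometrium_caruncular at 1.82. The member ranked 16 had 567.6 FPKM in Abomasum, 224 in left_Lung and 117 in bladder, and the member ranked 17 had 515 in Abomasum, 125 in Super_bull_testis and 86.3 in bladder. Each of these has 1 or 2 libraries that rise above an otherwise low background, as the rule permits.

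A few of the first 20 members had no high level in bladder. The member ranked 13 had 110.8 FPKM in Abomasum and at most 0.874 in any other library. The member ranked 19 had 27.7 FPKM in Abomasum and 5.10 in Jejunum, and at most 0.302 elsewhere. The member ranked 20 had 53.1 FPKM in Abomasum, against 11.8 in Kidney_Cortex and 7.29 in Kidney_Medulla. The member ranked 18 was of another kind, with 3206 FPKM in Abomasum, 591 in bladder and 104 in Pons, and 62 of the 93 other libraries at an FPKM of 1 or more.

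Members differed in how far they were confined to the abomasum. Abomasum was above every other library in 51 of the 60, and another library was higher in 9, namely the bladder for 6 of them, and Super_bull_testis, SalivaryGland and Ascending_colon for 1 each. The median of the other 93 libraries was listed at 0 for 34 members. For 18 members at most 5 of the other libraries reached an FPKM of 1, for 2 members none did, and for 10 members more than 46 of the 93 did. The Pearson correlation of the leading gene with the 59 other members over the 94 libraries, on log2(FPKM + 1), had a median of 0.588 and reached 0.9 for 2 of them. This is a description, since the Abomasum library that chose the genes is among the points.

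**Figure D1:**
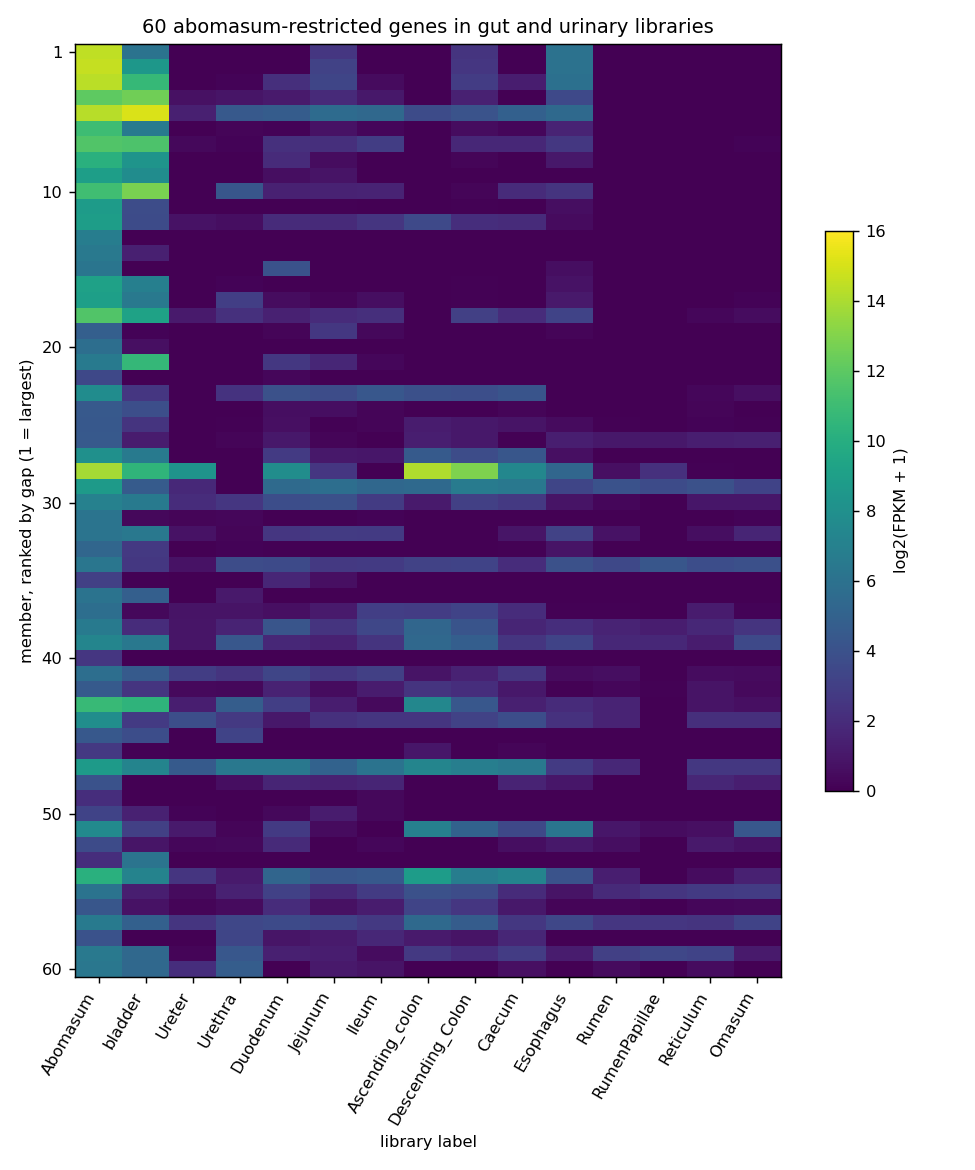
Level of the 60 members as log2(FPKM + 1) in Abomasum and 14 other gut and urinary libraries; each row is a member, ordered by gap, and each column a library. The bladder column is bright for many of the first members, the member ranked 28 is bright in Ascending_colon and Descending_Colon, and the 4 forestomach columns at the right are dark for most rows.

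The library labelled bladder carried more of the members than any other library outside the abomasum. It had 45 of 60 at an FPKM of 1 or more, where 66.2% of the 19547 genes detected in at least 1 library reached that level. At 10 or more it had 33, and the share of all genes at that level is not given. For comparison, Ureter had 13 and Urethra 21 members at an FPKM of 1 or more. The members held 8.43% of all FPKM in the bladder library, against 0.0541% in Ureter and 0.0407% in Urethra. The mean log2(FPKM + 1) over the members was 7.26 in Abomasum, 4.57 in bladder and 1.88 in Descending_Colon, the next library.

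Among the 93 libraries other than Abomasum, bladder was the highest for 26 of the 60 members and among the 3 highest for 35. Over all 19547 genes it was the highest of the 93 for 0.532%. Within the first 20 members it was the highest for 14. For these 26 members bladder had 1.65 to 35179.6 FPKM, and for 9 of them it was at least 10 times the next library. The shares of all genes with bladder among the 3 highest, or at 10 times the next library, are not given. The rule neither requires nor favours a high level in a particular other library, but it lets up to 2 libraries be high, and all 60 members were chosen with the bladder among the 93. A list drawn without the bladder library shared 54 of the 60.

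The library labelled bladder was also set against the other urinary libraries. Bladder was above the higher of Ureter and Urethra by a log2 difference of at least 1 for 36 of 60 members, where 4.15% of all genes were. It was below the lower of them by as much for 0 members, where 1.98% of all genes were. These counts rest on 1 bladder library and have no test. The whole profile of the library was nonetheless closest to Urethra (Spearman's rho 0.919 across 19547 genes, which are not independent replicates). Ureter took place 5 at 0.907, and Abomasum place 16 at 0.882, or 0.883 without the members. Ranked from the Abomasum library, bladder took place 5 and Urethra place 12. Whether the library labelled bladder also holds RNA of another tissue, or of a mixed-up sample, was not tested, so its values are those of the library and not shown to be those of bladder tissue. In bulk tissue fewer cells of a type and less RNA per cell cannot be told apart.

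The share of the Abomasum level found in bladder differed widely between members. Bladder had 100% or more of the Abomasum FPKM for 6 members, 10 to 100% for 23, 1 to 10% for 19 and under 1% for 5, and it was listed at 0 for 7. The median over the members was 8.73%. The 3 members with the largest gaps were at 0.297%, 1.46% and 8.16% of it in bladder. The members ranked 4, 5 and 10 were instead higher in bladder. Their levels were 4168, 20119.5 and 2148 FPKM in Abomasum, and 5808, 35179.6 and 7109 FPKM in bladder.

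Some members were nearly confined to these libraries and far higher in bladder. ENSBTAG00000012328 had 93.2 FPKM in Abomasum and 1622 in bladder, and 5 further libraries reached an FPKM of 1, the highest of them infundibulum_ipsilateral_CL at 12.4. It was listed at 0 in Ureter and Urethra. ENSBTAG00000045598 had 3.23 FPKM in Abomasum and 71.1 in bladder, no other library reached an FPKM of 1, and 89 of the 93 listed it at 0. These examples were chosen after their values were seen. The reverse also occurred: the member ranked 13 had 110.8 FPKM in Abomasum and was listed at 0 in bladder, as were those ranked 15, 22, 40, 48, 49 and 58. Choosing 60 genes for the bladder by the same rule gave 19 genes that were also in the abomasum list, 14 of them among its first 20 places, so the shared genes are 31.7% of either list. The same choice for Duodenum shared 1 gene with the abomasum list, and for Ascending_colon 2. Both lists come from the same values, and a gene high in both libraries can enter both, so the overlap is a description.

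**Figure D2:**
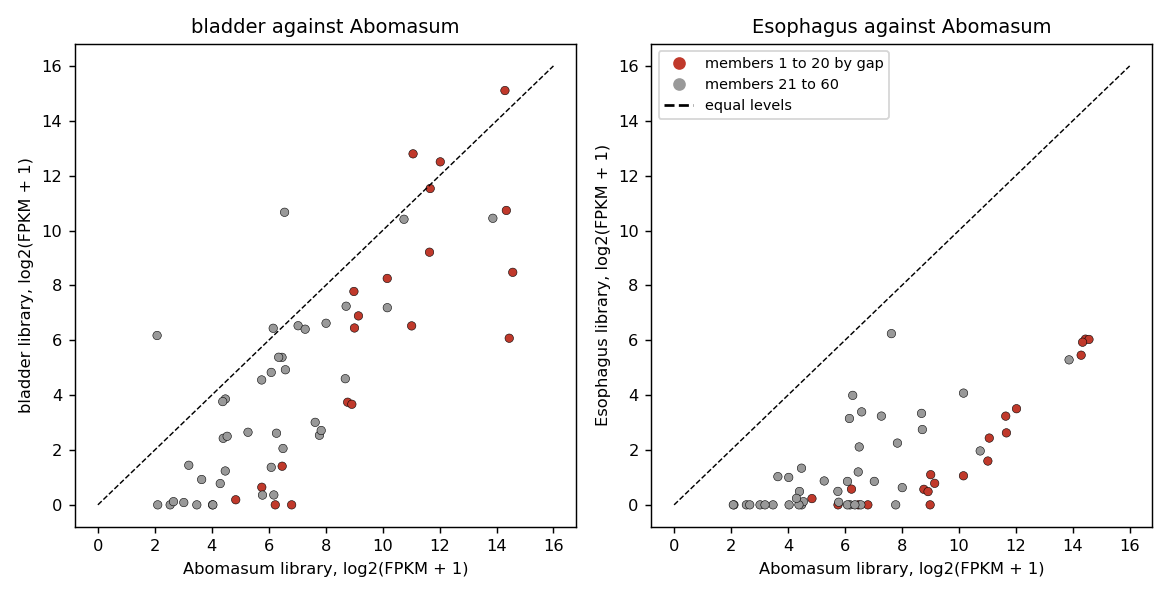
Level of each of the 60 members in the bladder library (left) and the Esophagus library (right) against its level in Abomasum, all as log2(FPKM + 1); red points are members 1 to 20 by gap and the dashed line marks equal levels. In bladder 6 members lie above the line and the rest scatter widely below it, while in Esophagus the abundant members lie in a narrow band far below the line.

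The Esophagus library gave a different picture for the 13 members at 1000 FPKM or more in Abomasum. Of these, 12 were at 0.0946 to 0.290% of the Abomasum level in Esophagus, and the member ranked 54 was at 1.38%. Jejunum was also low but less even, from 0.0215% to 1.59% over the 13 members, and its highest was again the member ranked 54. In bladder the same 13 members ran from 0.297% to 331%, a 1114-fold range. The median over the 13 members was 18.4% in bladder, 0.248% in Esophagus, 0.124% in left_Lung, 0.0837% in Duodenum and 0.0646% in Jejunum. The leading gene was at nearly the same percentage in both libraries, 0.297% in bladder and 0.290% in Esophagus. Carry-over of RNA or reads between libraries was not tested. The Esophagus values of these members, and low shares in Jejunum and other libraries, are therefore not shown to be expression in those tissues. The member ranked 54 had 15.8 FPKM in Esophagus and 18.3 in Jejunum, beside a median of 16.9 over the 93 libraries.

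**Figure D3:**
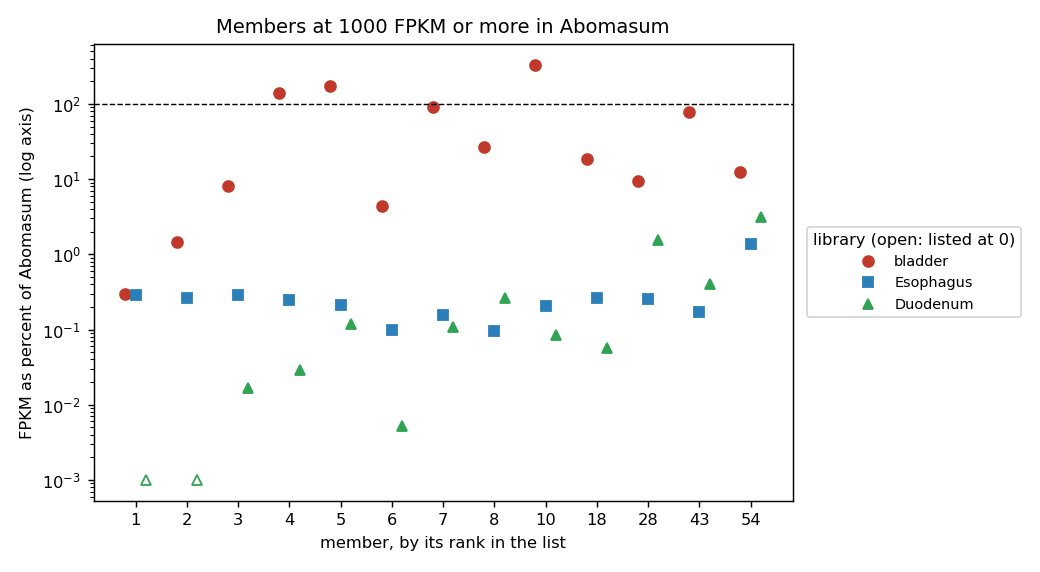
FPKM as a percentage of the Abomasum level, on a log axis, for the 13 members at 1000 FPKM or more in Abomasum; circles are bladder, squares Esophagus and triangles Duodenum, the dashed line is 100%, and open symbols at the bottom are listed at 0. Esophagus stays between 0.0946% and 0.290% for 12 members, while bladder runs from 0.297% to 331%.

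The Duodenum, the segment after the abomasum, held most members at a low level. At an FPKM of 10 or more were 11 members, at 1 to 10 were 23, above 0 but under 1 were 11, and 15 were listed at 0. The 34 members at an FPKM of 1 or more compare with 65.6% of all genes at that level, and Duodenum is among the libraries that the rule tends to hold low. In Jejunum 33 members and in Ileum 24 reached an FPKM of 1. As a percentage of the Abomasum level, Duodenum had a median of 0.807% over the members, with 12 members at 10% or more and 18 at 1 to 10%. The members together held 0.0755% of all FPKM in Duodenum, and none of the first 20 had more than 23.9 FPKM there.

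Duodenum was the highest of the 93 other libraries for 3 members, where it was so for 0.639% of all genes. It exceeded the higher of Jejunum and Ileum by a log2 difference of at least 1 for 8 of 60 members, where 1.0% of all genes did, and lay below the lower of them by as much for 1 member, where 3.35% did. The 8 members are those ranked 8, 15, 27, 28, 35, 43, 51 and 52. These are values of 1 library each, with no test.

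Of these, ENSBTAG00000018495 had 74.1 FPKM in Abomasum and 15.4 in Duodenum and stayed under 1 in the remaining 92 libraries, with 0 listed in Jejunum, Ileum and bladder. ENSBTAG00000030814 had 14991 FPKM in Abomasum, 230.1 in Duodenum, 4.80 in Jejunum and 0 in Ileum. Its highest levels outside the abomasum were in the colon, at 17556 FPKM in Ascending_colon and 7754 in Descending_Colon, with 169 in Caecum, 1394 in bladder and 292 in Ureter. It entered the list although Ascending_colon was above Abomasum, since 2 libraries may lie above the percentile. The members ranked 54, 51 and 57 were also high in Ascending_colon. The first of them had 1147 FPKM in Abomasum, against 35.9 in Duodenum, 467 in Ascending_colon, 107 in Descending_Colon and 149 in Caecum, and 89 of the 93 other libraries reached an FPKM of 1. The highest of the 93 libraries was Ascending_colon for 5 members, where it was for 0.778% of all genes.

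**Figure D4:**
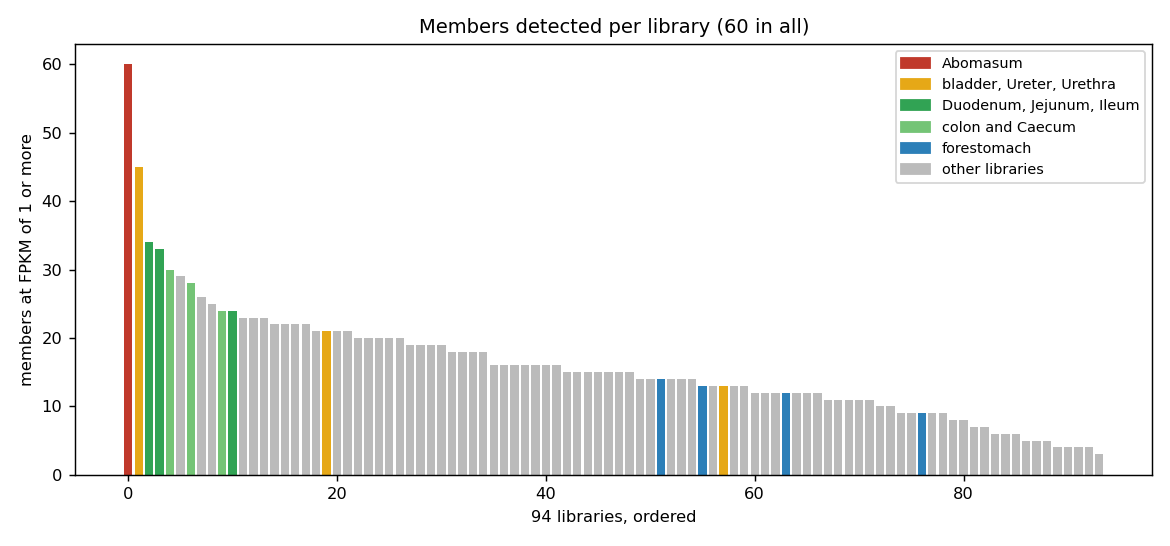
Number of the 60 members at an FPKM of 1 or more in each of the 94 libraries, ordered from high to low and coloured by tissue group. Abomasum has 60 by choice of the members, bladder 45, Duodenum 34 and Jejunum 33, and the 4 forestomach libraries lie between 9 and 14.

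The forestomach, which precedes the abomasum, held few members. Omasum had 14, Reticulum 13, Rumen 12 and RumenPapillae 9 at an FPKM of 1 or more. Of the 60 members, 29 were listed at 0 in all 4 libraries, 13 stayed under 1 in all of them with at least 1 value above 0, 10 reached 1 in some and 8 reached 1 in all. At least 1 forestomach library reached an FPKM of 1 for 18 members, and for 66.4% of all genes. These libraries are among those that the rule tends to hold low, so a lower share than over all genes is partly built in. None of the first 20 members reached 1 in any forestomach library, and 17 of them were listed at 0 in all 4. The mean log2(FPKM + 1) over the members was 0.55 ± 0.13 in the forestomach (SD, n = 4), against 1.49 ± 0.24 in the small intestine (SD, n = 3) and 1.72 ± 0.22 in the large intestine (SD, n = 3).

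The members that reached 10 FPKM in a forestomach library were the 4 ranked 29, 34, 39 and 51, and they reached an FPKM of 1 in 20, 73, 34 and 18 of the 93 other libraries. ENSBTAG00000015607, ranked 34, had 76.3 FPKM in Abomasum, against 9.91 in Rumen, 18.8 in RumenPapillae, 13.0 in Reticulum and 13.7 in Omasum, and RumenPapillae was the highest of the other libraries. ENSBTAG00000017478 had 412 FPKM in Abomasum, against 15.1, 11.5, 14.7 and 8.41 FPKM in Rumen, RumenPapillae, Reticulum and Omasum. In both genes all 4 forestomach libraries were far under the Abomasum library. The member ranked 51 differed, with 19.3 FPKM in Omasum and 0.958, 0.463 and 0.609 in Rumen, RumenPapillae and Reticulum, beside 197 in Abomasum and 74.7 in Esophagus.

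Small intestine and forestomach, the segments on either side of the abomasum, were compared by limma over all 19547 genes, a contrast in which the Abomasum library takes no part. Of the 60 members, 14 were higher in the small intestine and 0 lower (limma, called where the Benjamini-Hochberg adjusted p was under 0.05 and the groups differed by 1 or more in log2). By the same rule 11.4% of all genes were higher and 3.96% lower. At an unadjusted p under 0.05, 24 members were higher and 3 lower, where 25.3% of all genes were higher and 8.51% lower. The median log2 difference was 0.65 over the members and 0.19 over all genes. With quantile normalization, which moved the median over all genes to -8.40e-05, 12 members were higher and 1 lower, and over all genes the split went to 1450 higher and 1223 lower, beside 2229 and 774 as deposited. Every small intestinal library lay above every forestomach library for 22 members, where that held for 24.7% of all genes, and below for 0 members, where 7.91% did. The rule caps each member in most of these libraries, so the counts describe low levels.

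Among the 14, the log2 differences ran from 1.27 to 5.21, with adjusted p of at most 0.0212 by limma. The groups did not overlap in any of them, but the call picked these members, so this is no separate result. The share without overlap among all called genes is not given. ENSBTAG00000026088, the member ranked 5, had 23.9 FPKM in Duodenum, 46.6 in Jejunum and 41.6 in Ileum, a mean of 37.4 ± 11.9 (SD, n = 3), and was listed at 0 in all 4 forestomach libraries (limma adjusted p = 0.000135). Its small intestinal values were 0.119%, 0.232% and 0.207% of the Abomasum level, beside 0.213% in Esophagus. The members ranked 4, 7, 10 and 18 were also called, at 0.0257% to 0.201% of the Abomasum level in the small intestinal libraries. Carry-over was not tested for any of these members, so their calls are not shown to be expression in the small intestine. ENSBTAG00000031569 had 82.6, 31.2 and 67.4 FPKM in Duodenum, Jejunum and Ileum, against 2.44, 0, 5.07 and 4.98 in Rumen, RumenPapillae, Reticulum and Omasum. Its means were 60.4 ± 26.4 (SD, n = 3) and 3.12 ± 2.41 FPKM (SD, n = 4), which differ by 4.09 ± 0.74 in log2 (SE; adjusted p = 0.0139 by limma). The call was lost with a pseudocount of 0.1 (limma adjusted p = 0.0703) and without Ileum (0.0518).

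The member ranked 29, ENSBTAG00000017478 named above, averaged 46.7 ± 7.29 FPKM in the small intestine (SD, n = 3) and 12.4 ± 3.11 in the forestomach (SD, n = 4), which differ by 1.85 ± 0.22 in log2 (SE; adjusted p = 0.00319 by limma). ENSBTAG00000015607 was on the other side, with 7.25 ± 3.12 FPKM in the small intestine (SD, n = 3) and 13.9 ± 3.67 in the forestomach (SD, n = 4), and its difference of -0.88 ± 0.31 in log2 did not pass (SE; adjusted p = 0.101 by limma). Bladder was the highest of the 93 other libraries for 8 of the 14 genes.

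**Figure D5:**
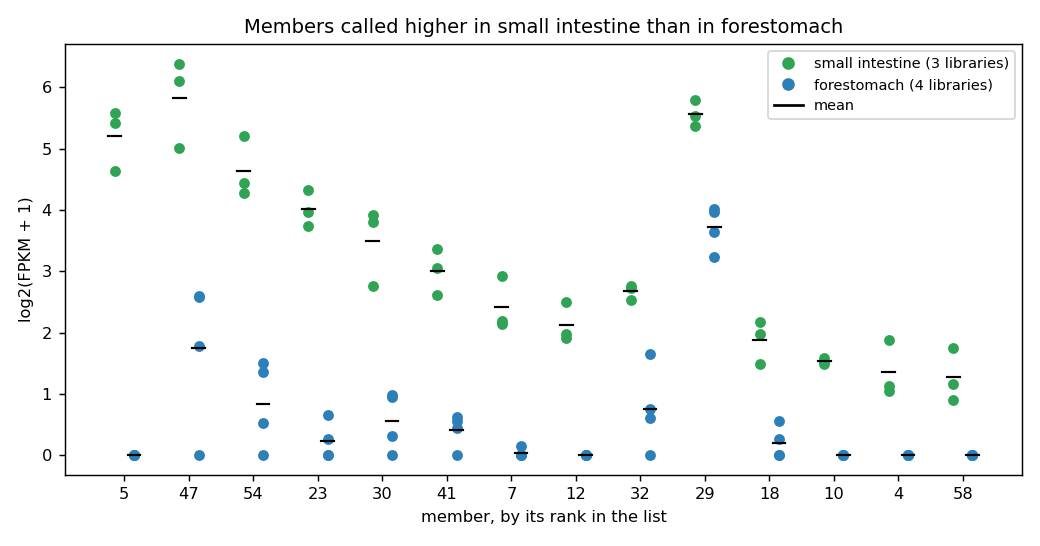
Level as log2(FPKM + 1) of the 14 members called higher in small intestine (green, left of each pair, 3 libraries) than in forestomach (blue, right, 4 libraries); points are libraries and bars are means, and members are ordered by the log2 difference. The member ranked 5 shows the widest separation (5.21), and no member has overlapping groups, which is no separate result since the call picked them.

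Small and large intestine were compared in the same way to see whether members fade along the gut. Limma called 0 of 60 members, with 11 at an unadjusted p under 0.05, of which 4 were higher and 7 lower in the small intestine. It called 0.0972% of all genes, and at an unadjusted p under 0.05 it found 3.71% of them higher and 2.68% lower. The median log2 difference was 0.02 over the members and 0 over all genes. Many members are near 0 FPKM in both regions, and these values do not show that members stay level along the gut. With genes limited to an FPKM of 1 or more in at least 2 of the libraries compared, 35 members remained, their median was -0.42 beside -0.04 over all genes so limited, and 1 member was called higher and 1 lower. With the spread taken from all 94 libraries, 2 members were called higher and 2 lower. ENSBTAG00000030814, with 230.1, 4.80 and 0 FPKM in Duodenum, Jejunum and Ileum against 17556, 7754 and 169 in Ascending_colon, Descending_Colon and Caecum, differed by -8.01 ± 2.79 in log2 and was not called (SE; adjusted p = 0.727 by limma). The member ranked 32 had the smallest unadjusted p of the 60, with a difference of 2.36 ± 0.31 in log2, and was not called either (SE; adjusted p = 0.166 by limma). In simulated data of this size, changes were planted only in genes of higher mean level. Limma recovered 80% of changes of 4 and 39% of changes of 2 on the log2 scale, so changes of 2 were often missed. Recovery was not simulated for genes near 0 FPKM, as many members are.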

How the data were processed

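Per the file headers and labels, the authors deposited 1 table of FPKM for 24616 genes and 94 libraries. Per the submitters' processing notes, HISAT2 and StringTie were used with the build UMD3.1. Neither their versions nor the gene annotation is stated in the labels. Low values showed no whole-read steps (at most 1.57% of 254 low genes shared a ratio between Abomasum and bladder, in bins of 0.01 log2), so depth is unknown, no counting interval is given, and a 0 is given as listed.

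Libraries were grouped by tissue label. The 19547 genes that reached 1 FPKM in any library were analysed as log2(FPKM + 1), which understates folds of low genes. Groups were compared by limma 3.58.1 (R 4.3.3), using moderated variances with a trend on level, two-sided p-values and Benjamini-Hochberg adjustment over all genes tested. Data of 19547 genes were simulated for small intestine against forestomach, with changes planted only in genes of higher mean level. Limma recovered 94% of the planted log2 changes of 4 and 62% of those of 2. Other steps used Python 3.11.15, numpy 2.4.6 and pandas 2.3.3. The members, lists and tests were chosen with earlier results of these data known. Members to be described were the first 20, the 5 highest in Duodenum, in bladder, in the forestomach and in the remaining libraries, and those called by limma. Only some of these are given with their values. Since identifiers carry no names, at most 2 per direction of a comparison are printed. Marker lists for gastric, intestinal, squamous and urothelial cells could not be matched to identifiers and were not run. Alternatives were another pseudocount, filter, scaling, spread and percentile, and each library left out.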

Additional observations from a re-analysis of the deposited data

Results flagged for a closer look

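Values were checked for a library standing apart within groups of 4 to 10 libraries, by Dixon's gap over the range, in 44 sets, and 8 were flagged. The nominal rate of about 1 in 20 is for replicates. These libraries are different tissues, with many values listed at 0, so that rate cannot be used to judge the 8. In the uterus, Uterine_myometrium was low, with 13 members at an FPKM of 1 or more and a mean log2(FPKM + 1) of 0.596 over the members, beside 22 to 23 members in the 3 endometrial libraries. In the forestomach, Omasum stood above the other chambers for the members ranked 7 (0.109 FPKM), 39 (10.8 FPKM), 51 (19.3 FPKM) and 57 (8.47 FPKM). RumenPapillae stood above the other chambers for the member ranked 28 (3.56 FPKM), and Reticulum for the member ranked 37 (1.35 FPKM). The value of the member ranked 7, 0.109 FPKM, is close to 0. The other forestomach libraries were listed at 0 for it, so any single value above 0 would have been flagged.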

How the results depend on the processing

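Between small intestine and forestomach, 14 members called became 12 to 19 under other settings and 13 to 15 with a library left out. Over all genes, 3003 called became 2585 to 3669 under other settings and 2084 to 2844 with a library left out. A count of 19 members came with a pseudocount of 0.1, beside 3145 of 19547 genes. The filter on the libraries compared also gave 19, of 33 members tested, beside 3669 of 13984 genes. Leaving out Duodenum gave 13 higher and 2 lower, and leaving out Omasum 14 higher and 1 lower. ENSBTAG00000031569 was not called with a pseudocount of 0.1 or without Ileum. Between small and large intestine, 19 genes called became 53 with a pseudocount of 0.1, 6 with no filter, 100 with a filter on the libraries compared, 5 with quantile normalization, 226 with the spread of all libraries, and 2 (without Descending_Colon) to 58 (without Ileum) with a library left out, with 8 without Ascending_colon and 6 without Caecum. Members called were 2 with that filter and 4 with that spread, beside 0. Members past the fold in Duodenum were 13 with a pseudocount of 0.1, beside 8, and the share of all genes past it at that setting is not given. Of the 60 members, 36 were kept against the highest of the other libraries, 24 against their median and 53 without Duodenum and bladder. The cause of these changes was not tested. The list drawn without bladder gave 13 members called higher in small intestine than forestomach and 0 lower. No paired analysis was possible because the labels carry no replicate numbers shared between groups. Depth is unknown, and only 1 Abomasum, 1 bladder and 1 Duodenum library limit every level given for them.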

Other observations

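The 20 genes that follow the list by gap, at 1.39 to 1.56, had 4.18 to 7062 FPKM in Abomasum. Of these, 15 reached an FPKM of 1 in bladder and 16 in Duodenum, where 66.2% and 65.6% of all genes did. Bladder was the highest of the 93 other libraries for 3 of the 20, where it was so for 0.532% of all genes. The 5 genes outside the list whose levels followed the leading gene most closely over 94 libraries had a Pearson r of 0.606 to 0.792 on log2(FPKM + 1), and 4 of them had under 2 FPKM in Abomasum. The remaining gene had 281 FPKM in Abomasum and 838 in bladder.

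As a whole profile, Abomasum was closest to Duodenum (Spearman's rho 0.899 across 19547 genes), then to Descending_Colon at 0.897 and Ascending_colon at 0.885. The library labelled bladder took place 5 at 0.882. Duodenum in turn was closest to Jejunum at 0.947, with Abomasum at place 5. The forestomach libraries had a rho with Abomasum of 0.858 for Omasum, 0.854 for Reticulum, 0.832 for Rumen and 0.796 for RumenPapillae. At the other end, the library labelled Chorid_plexus had 3 members at an FPKM of 1 or more and skeletal muscle libraries 4 to 12.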
